A study of Mus musculus with 19 samples.

Results

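The genes described here build the class I antigen presentation machinery. They are B2m, H2-K1, H2-D1, Tap1, Tap2, Tapbp, Psmb8, Psmb9 and Nlrc5, taken as a named set by their role, with earlier results of these data known. All 9 were found among the 20938 genes of the deposited count table, and all 9 passed the filter on low counts that left 16417 genes for testing. RNA was sequenced from the left prelimbic cortex of mice in 19 libraries from 4 groups. The SCZ+c-MSST group (4 libraries) had received MK-801, an NMDA receptor blocker given to produce schizophrenia-like behaviour, at 0.2 mg/kg by intraperitoneal injection each day for 2 weeks, and then c-MSST. The SCZ group (4 libraries) had received MK-801 without c-MSST. The Control+c-MSST group (5 libraries) had received saline and c-MSST, and the Control group (6 libraries) saline without c-MSST. In c-MSST the iron oxide nanoparticle ferumoxytol was placed in that cortex by 1 stereotactic injection, and the awake mice were then exposed to a pulsed magnetic field. Tissue was taken on day 3 after surgery. The labels give no strain, sex or batch, and describe surgery only as the step that delivers the nanoparticle. Day 3 after surgery is given for all 4 groups, and a sham injection is not mentioned. Nothing states that each library came from a separate animal, so the p-values measure the spread between libraries.

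Class I molecules carry peptides from inside the cell to its surface, where CD8 T cells read them. Proteasomes cut the peptides, a transporter moves them into the endoplasmic reticulum, and they are loaded there onto a heavy chain bound to beta-2-microglobulin. Interferons induce most of these genes together, and in the brain the levels are known to be low in neurons and higher in microglia and vascular cells, while neuronal class I has been linked to synapse remodelling.

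The promoters of these genes are shown as background, and their part in the levels that follow was not tested. Sequences are from RefSeq on GRCm38.p6, from 250 bases before to 50 bases after the annotated start, and 7 of the 9 genes had an entry (all but Tap2 and Nlrc5). Capitals mark every match, on either strand, to 6 short motifs. These were the core of the class I interferon consensus TTTCACTTC, the ISRE repeat TTCNNTTTC, the kB site GGGATTCCC, the gamma-activated site TTCNNNGAA, the CRE-like core TGACG and the CCAAT box CCAAT.
H2-K1 (chr17:34000298-34000597, minus strand): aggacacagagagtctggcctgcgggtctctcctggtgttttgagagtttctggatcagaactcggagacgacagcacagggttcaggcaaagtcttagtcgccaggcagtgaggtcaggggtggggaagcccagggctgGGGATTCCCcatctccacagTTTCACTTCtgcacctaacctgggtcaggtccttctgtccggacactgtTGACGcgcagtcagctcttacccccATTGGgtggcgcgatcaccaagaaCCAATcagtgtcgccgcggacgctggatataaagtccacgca
H2-D1 (chr17:35262844-35263143, plus strand): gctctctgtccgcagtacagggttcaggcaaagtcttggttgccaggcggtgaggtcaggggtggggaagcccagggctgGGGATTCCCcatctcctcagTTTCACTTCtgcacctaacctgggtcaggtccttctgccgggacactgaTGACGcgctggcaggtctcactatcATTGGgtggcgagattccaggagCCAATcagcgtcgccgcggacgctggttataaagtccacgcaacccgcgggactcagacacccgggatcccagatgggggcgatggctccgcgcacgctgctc
B2m (chr2:122147437-122147736, plus strand): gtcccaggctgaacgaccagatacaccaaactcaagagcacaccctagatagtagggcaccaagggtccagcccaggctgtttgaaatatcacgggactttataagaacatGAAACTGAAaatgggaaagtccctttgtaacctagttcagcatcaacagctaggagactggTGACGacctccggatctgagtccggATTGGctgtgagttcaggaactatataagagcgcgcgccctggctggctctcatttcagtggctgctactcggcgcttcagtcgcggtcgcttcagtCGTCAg
Tap1 (chr17:34187306-34187605, plus strand): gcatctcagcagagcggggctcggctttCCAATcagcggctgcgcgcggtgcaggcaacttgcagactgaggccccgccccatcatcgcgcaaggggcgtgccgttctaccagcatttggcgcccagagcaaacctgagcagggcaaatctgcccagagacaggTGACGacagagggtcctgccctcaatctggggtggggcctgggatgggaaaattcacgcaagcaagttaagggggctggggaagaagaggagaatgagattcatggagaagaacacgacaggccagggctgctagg
Tapbp (chr17:33919228-33919527, plus strand): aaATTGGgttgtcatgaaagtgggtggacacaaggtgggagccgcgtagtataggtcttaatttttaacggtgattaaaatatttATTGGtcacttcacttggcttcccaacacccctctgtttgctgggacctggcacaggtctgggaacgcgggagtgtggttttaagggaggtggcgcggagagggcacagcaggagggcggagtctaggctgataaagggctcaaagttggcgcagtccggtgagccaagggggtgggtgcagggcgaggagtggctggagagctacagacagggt
The core of the interferon consensus was present in the windows of H2-K1 and H2-D1, and in 0.522% of 27025 promoters of the same length. The kB site also occurred in both, and in 0.370% of all promoters. In H2-K1 the interferon consensus lay 90 to 82 bases before the annotated start, and in H2-D1 150 to 142 bases before it. These distances depend on where each start is annotated, and the kB site was shifted between the windows in the same way. The 2 windows aligned over 239 bases with 88.3% identity. The window of B2m held neither of these exact runs of letters. Only this 1 form of the kB site was searched, so other forms in the B2m window would not be marked. The window had the ISRE repeat 139 to 131 bases before the start, a repeat present in 8.57% of all promoters. The gamma-activated site was found in 1 of the 7 windows, that of Psmb8, and in 8.47% of all promoters. The CRE-like core was in 5 of the 7 windows against 21.0% of all promoters, and the CCAAT box in 6 of the 7 against 37.9%. Tap1 and Psmb9 are transcribed away from each other, and their windows shared 275 bases. A match is a run of letters in a window and not a measured binding site.

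In all, 7 of the genes lie on chromosome 17 in the GENCODE M21 annotation of GRCm38. Psmb9, Tap1, Psmb8 and Tap2 stand side by side within 34.3 kb, from chr17:34181987 to chr17:34216321. Tapbp (chr17:33915899-33929292) and H2-K1 (chr17:33996017-34000347) lie on 1 side of this block, and H2-D1 (chr17:35262730-35267499) on the other, 1262.4 kb from H2-K1. B2m is on chromosome 2 (chr2:122147686-122153083) and Nlrc5 on chromosome 8 (chr8:94434356-94527272). Some members share bases with another gene, and it is unknown here if reads were assigned by strand. B2m lies wholly within Patl2 on the opposite strand, Tapbp overlaps Zbtb22 by 3422 bases on the same strand, and Tap1 and Psmb9 overlap by 212 bases. The longest transcripts of H2-K1 and H2-D1 aligned with 87.3% identity and shared a run of 91 identical bases, and H2-D1 shared a run of 130 bases with H2-Q7. Counts of H2-K1, H2-D1 and the H2-Q genes are therefore uncertain where reads could match more than 1 of them. Patl2 itself was at 0 to 0.332 CPM in the 19 libraries. Zbtb22 was listed at 0 in 4 libraries (SCZ replicate 1 and Control replicates 2, 4 and 5) and reached 24.99 CPM in SCZ+c-MSST replicate 4, while Tapbp stayed at 25.8 to 34.3 CPM.

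Total counts were 50140626 to 82416746 per library, and a count of 0 allowed at most 0.0364 to 0.0598 CPM, for counting error only. The lowest count of a member in any library was 24. Control replicates 2 and 3 stood apart by summed choroid plexus markers of 1825 and 186 CPM, against 10.95 to 31.8 CPM in the other 4 Control libraries. Control replicate 1 had the lowest total. Results that rest on Control libraries are given with and without replicates 2 and 3 where they change.

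Per length, the heavy chains and B2m were the most abundant members. Over the 19 libraries H2-D1 averaged 19.4 ± 6.43 FPKM, B2m 15.7 ± 3.73 FPKM and H2-K1 14.0 ± 5.38 FPKM (SD). The ranges of these 3 genes overlapped, but within every library H2-D1 was above H2-K1. The place of B2m relative to each of them differed between libraries. Tapbp, the peptide loading chaperone tapasin, averaged 4.91 ± 0.607 FPKM, and Tap2 averaged 2.22 ± 0.354 FPKM with no overlap with Tapbp. Tap1, which pairs with Tap2 in the transporter, averaged 0.870 ± 0.419 FPKM. Psmb8 averaged 0.810 ± 0.344, Nlrc5 0.447 ± 0.300 and Psmb9 0.391 ± 0.258 FPKM, and the ranges of Tap1, Psmb8, Nlrc5 and Psmb9 overlapped.

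B2m, the light chain of every class I molecule, had 62.5, 64.6, 79.7 and 65.6 CPM in SCZ+c-MSST replicates 2, 3, 4 and 5. In SCZ replicates 1, 2, 3 and 5 it had 67.3, 50.8, 54.2 and 67.0 CPM. In Control+c-MSST replicates 1, 2, 4, 6 and 7 it had 51.1, 47.9, 43.9, 52.7 and 45.5 CPM, and in the Control libraries 48.3 at the lowest, 78.8 at the median and 104 CPM at the highest. The 5 Control+c-MSST libraries lay together at or below 52.7 CPM, all below the 4 SCZ+c-MSST libraries, whereas Control replicates 2 and 3 fell among them at 51.9 and 48.3 CPM. These 2 Control libraries also had the lowest summed microglia markers of their group, 395 and 359 CPM against 447 to 481 CPM in the other 4, and the part of this in B2m was not tested.

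H2-K1, a classical heavy chain, had 25.5, 22.8, 35.9 and 28.5 CPM in SCZ+c-MSST libraries and 33.9, 22.8, 25.7 and 40.4 CPM in SCZ libraries, in the same replicate order. It had 17.5, 18.3, 15.9, 26.8 and 15.9 CPM in Control+c-MSST libraries and 10.9 at the lowest, 29.3 at the median and 43.0 CPM at the highest in Control libraries. The Control libraries stood apart from one another. Replicates 1, 2 and 3 had 10.9, 16.8 and 18.8 CPM and replicates 4, 5 and 7 had 39.7, 43.0 and 40.8 CPM, a span that took in every other library. H2-D1, the other classical heavy chain, had 39.9, 39.2, 55.0 and 46.9 CPM in SCZ+c-MSST libraries and 50.2, 33.8, 42.9 and 55.7 CPM in SCZ libraries. It had 35.9, 34.5, 29.9, 49.8 and 32.3 CPM in Control+c-MSST libraries and 23.8, 44.0 and 75.0 CPM (lowest, median, highest) in Control libraries. Control replicates 4, 5 and 7 had 58.8, 71.0 and 75.0 CPM of H2-D1 and were the highest of all 19 libraries, and Control replicates 1, 2 and 3 were the lowest at 23.8, 29.3 and 28.9 CPM. Control replicate 1, with the least H2-K1 and H2-D1 of all libraries, had 79.2 CPM of B2m, and only 3 of the 19 libraries had more.

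Tap1, the transporter subunit, had 3.10, 4.16, 4.87 and 4.44 CPM in SCZ+c-MSST libraries and 5.98, 3.86, 3.596 and 5.88 CPM in SCZ libraries. It had 2.61 to 3.29 CPM in Control+c-MSST libraries and 2.27, 3.76 and 10.6 CPM (lowest, median, highest) in Control libraries. Control replicate 4 had more than any other library. Tap2 had 6.95 to 9.23 CPM in SCZ+c-MSST libraries, 7.57 to 10.6 CPM in SCZ libraries, 5.94 to 7.99 CPM in Control+c-MSST libraries and 7.11 to 10.13 CPM in Control libraries, with all groups overlapping. Tapbp varied least, with 26.6 to 34.1 CPM in SCZ+c-MSST libraries, 29.5 to 34.05 CPM in SCZ libraries, 27.8 to 31.5 CPM in Control+c-MSST libraries and 25.8 to 34.3 CPM in Control libraries.

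Psmb8 and Psmb9 encode catalytic subunits that replace constitutive ones in the interferon-inducible immunoproteasome. Psmb8 had 1.87 to 2.42 CPM in SCZ+c-MSST libraries and 1.63 to 3.58 CPM in SCZ libraries. In Control+c-MSST libraries it had 1.06 to 1.84 CPM and in Control libraries 0.496, 1.86 and 3.78 CPM (lowest, median, highest). The lowest SCZ+c-MSST library exceeded the highest Control+c-MSST library for Psmb8, at 1.868 against 1.843 CPM. Psmb9 had 0.663 to 1.55 CPM in SCZ+c-MSST libraries and 0.679 to 2.14 CPM in SCZ libraries, against 0.437 to 1.23 CPM in Control+c-MSST libraries. In Control libraries it had 0.419, 0.860 and 3.56 CPM (lowest, median, highest), the last in replicate 4. Nlrc5, the transactivator of class I genes, had 3.89, 3.67, 5.45 and 2.90 CPM in SCZ+c-MSST libraries and 5.04, 2.13, 4.23 and 4.67 CPM in SCZ libraries. It had 2.62, 1.73, 1.22, 3.14 and 1.89 CPM in Control+c-MSST libraries and 1.59, 3.54 and 11.8 CPM (lowest, median, highest) in Control libraries. Control replicate 4 again stood highest.

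**Figure D1:**
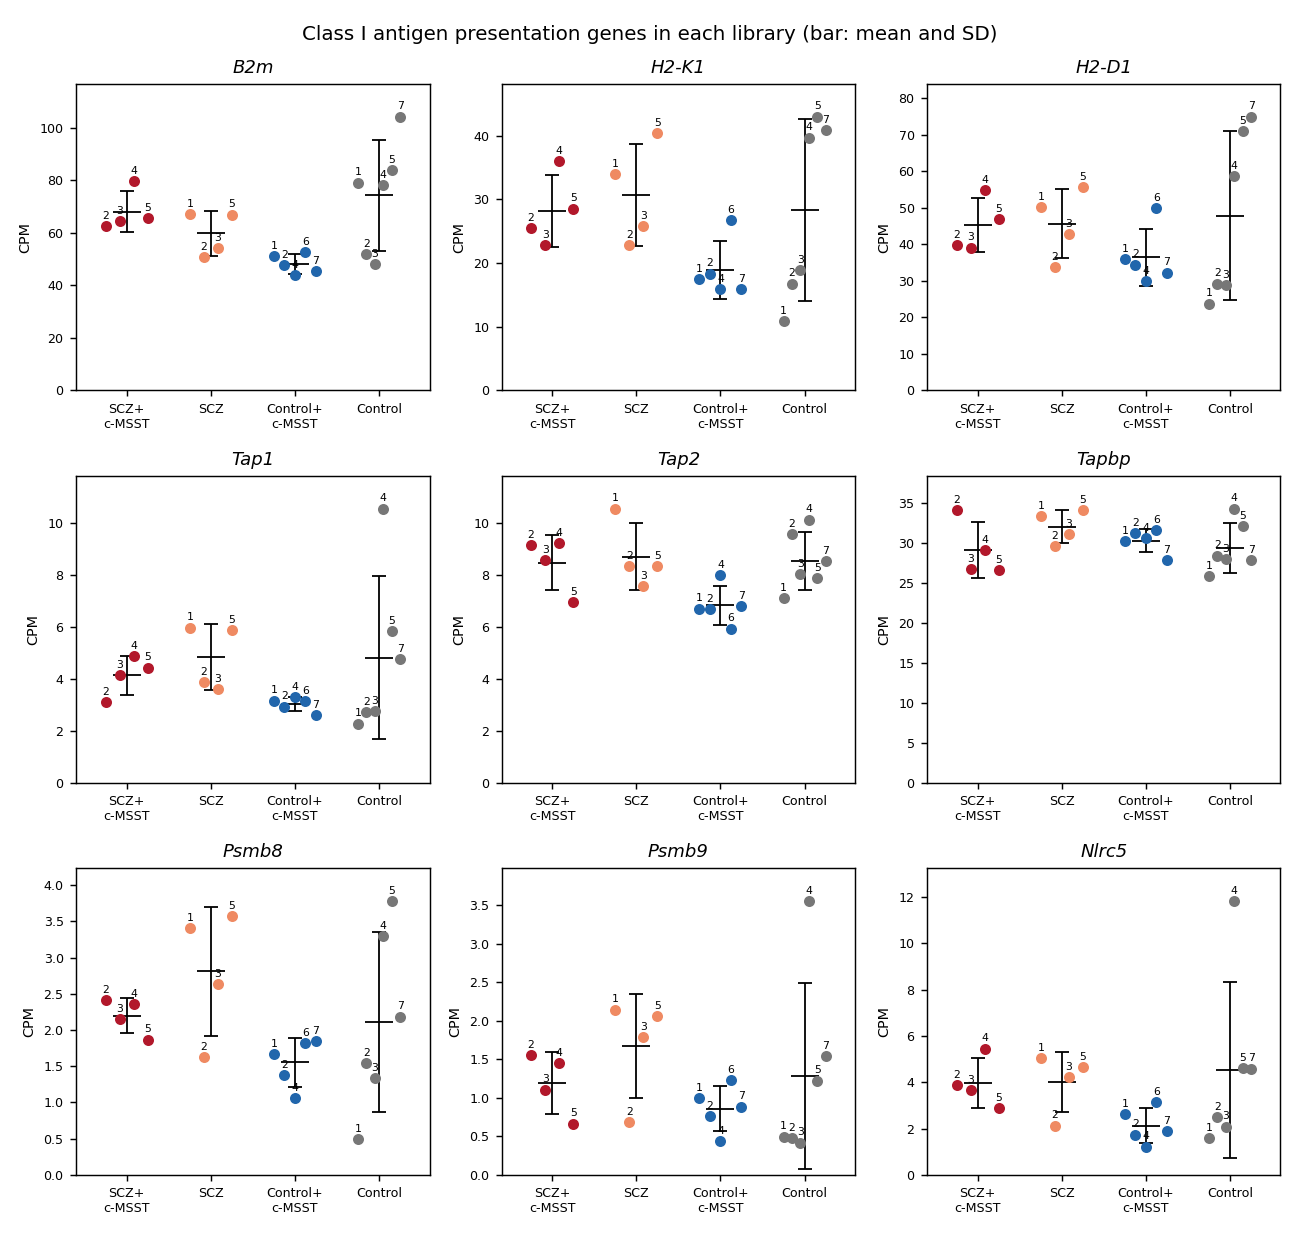
Level of each of the 9 genes in CPM (vertical axis, from 0) in every library, by group; numbers are replicates, and bars give the mean and SD. Control replicates 4, 5 and 7 sit above replicates 1, 2 and 3 for H2-K1 and H2-D1, whereas Tapbp stays between 25.8 and 34.3 CPM.

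The members varied more between Control libraries than most genes did. The median member had an SD of 0.835 (log2 CPM) among the 6 Control libraries, against 0.200 for the median of all tested genes. It had 0.229 against 0.131 in SCZ+c-MSST, 0.374 against 0.127 in SCZ and 0.283 against 0.155 in Control+c-MSST libraries. The SD of 9 members in SCZ+c-MSST, 8 in SCZ, 5 in Control+c-MSST and 7 in Control lay above the median of all tested genes. In Control libraries Psmb9, Nlrc5 and Psmb8 had SDs of 1.19, 1.04 and 1.04, whereas Tap2 and Tapbp had 0.188 and 0.150. Psmb8 and Psmb9 had few counts, with 24 each in their lowest library.

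**Figure D2:**
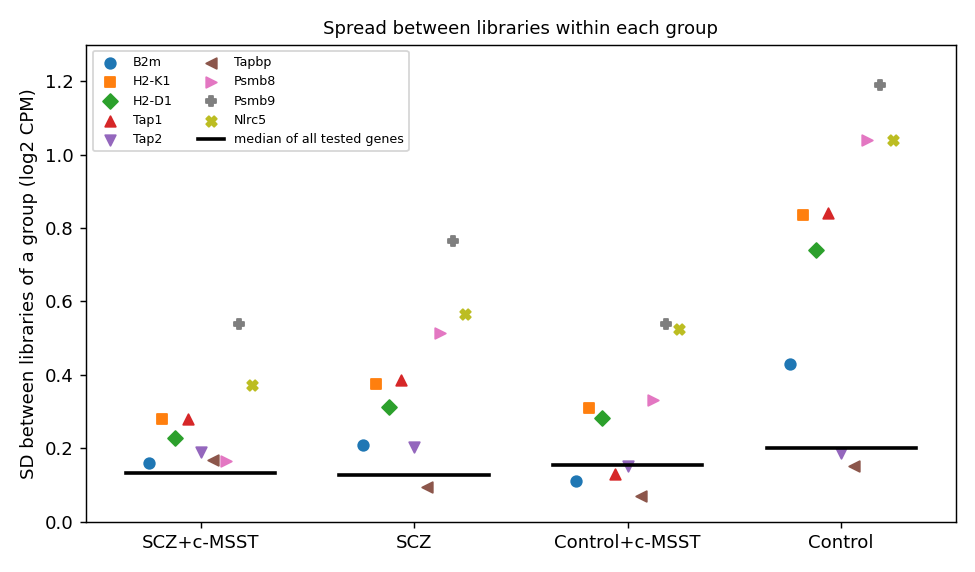
SD between the libraries of a group (vertical axis, log2 CPM) for each of the 9 genes, with the median of all tested genes as a black line. In Control libraries 7 of the 9 genes lie above the line, which is at 0.200.

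MK-801 was compared with saline in mice without c-MSST. In SCZ against Control libraries 0 of 9 members were called at an adjusted p under 0.05 (edgeR quasi-likelihood test), as were 0% of all tested genes (243 genes by DESeq2 and 94 without Control replicate 4, members 0 in both), and 0 of 9 passed at an unadjusted p under 0.05 (6.09% of all tested genes were higher and 7.43% lower at that level). A positive log2 fold change was found for 6 members and a negative one for 3, with a median of 0.03 against 0.00047 over all tested genes. B2m averaged 59.8 ± 8.56 CPM in SCZ libraries and 74.3 ± 21.1 CPM in Control libraries (SD, n = 4 and 6), and the fitted log2 fold change was -0.31 (SE 0.17, adjusted p = 0.436 by edgeR). Psmb8 averaged 2.81 ± 0.889 CPM in SCZ libraries and 2.11 ± 1.25 CPM in Control libraries, and the fitted log2 fold change was 0.42 (SE 0.37, adjusted p = 0.663). It was 0.21 without Control replicate 1 and 0.67 without Control replicate 5. The ranges of SCZ and Control libraries overlapped for all 9 members, while 1.6% of all tested genes lay wholly higher and 1.25% wholly lower. All 12 striatal neuron markers had positive values (median 1.19, 0 called, 1 at an unadjusted p under 0.05). Their sum averaged 1835 ± 257 CPM in SCZ libraries and 849 ± 679 CPM in Control libraries. All 10 choroid plexus markers had negative values (median -2.30, 0 called, 6 at that level). With striatal, septal and choroid plexus scores as covariates Tap1, H2-K1 and Psmb9 turned negative, at -0.47, -0.18 and -0.18. The part of these tissues was not tested further.

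Of the 4 comparisons of groups, that of c-MSST with no c-MSST in saline mice gave the lowest median. In Control+c-MSST against Control libraries 8 of 9 members had negative log2 fold changes, with a median of -0.58 against -0.01 over all tested genes. None of the 9 was called, against 0.329% of all tested genes, while 4 (B2m, Tap2, Nlrc5 and Tap1) were lower at an unadjusted p under 0.05, against 8.7% of all tested genes (7.86% were higher). B2m averaged 48.2 ± 3.72 CPM in Control+c-MSST libraries and 74.3 ± 21.1 CPM in Control libraries (SD, n = 5 and 6), and the fitted log2 fold change was -0.62 (SE 0.16, adjusted p = 0.0831 by edgeR). Nlrc5 averaged 2.12 ± 0.759 CPM in Control+c-MSST libraries and 4.54 ± 3.802 CPM in Control libraries, and the fitted log2 fold change was -1.10 (SE 0.44, adjusted p = 0.221). H2-K1 averaged 18.9 ± 4.54 CPM in Control+c-MSST libraries and 28.3 ± 14.3 CPM in Control libraries, and the fitted log2 fold change was -0.59 (SE 0.31, adjusted p = 0.361). Tap2 was at -0.32 (SE 0.11, adjusted p = 0.166) and Tap1 at -0.67 (SE 0.32, adjusted p = 0.295). Tapbp was at 0.04 (SE 0.08, adjusted p = 0.843). The ranges of Control+c-MSST and Control libraries overlapped for all 9, while 0.847% of all tested genes lay wholly higher and 0.755% wholly lower. Without Control replicate 4 the median of the members was -0.28, Nlrc5 was at -0.54 (adjusted p = 0.440) and Tap1 at -0.28 (adjusted p = 0.606). B2m was called when Control replicate 3 was left out (adjusted p = 0.0492, with 0.214% of all tested genes called) and by DESeq2 (adjusted p = 0.00709, with 3.45% called). Without Control replicates 2 and 3 together it was at -0.84 (adjusted p = 0.00413 by edgeR, with 0.0979% called), and in each of these cases B2m was the 1 member called. These replicates had the lowest B2m of the Control libraries, 51.9 and 48.3 CPM, so leaving them out could only make the value more negative. Leaving out both was chosen after the data were seen, so no conclusion is drawn from calls made without these libraries.

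Summed and single markers of other cells were read in the same comparison, with none called. All 10 tested oligodendrocyte markers had negative log2 fold changes in Control+c-MSST against Control libraries (median -0.56, 0 called, 9 at an unadjusted p under 0.05), and all 10 choroid plexus markers did too (median -3.89, 0 called, 10 at an unadjusted p under 0.05). Negative values were also found for 10 of 10 astrocyte markers (median -0.10, 5 at an unadjusted p under 0.05), 7 of 7 septal and medial forebrain markers (median -0.66, 3 at that level) and 10 of 12 meningeal markers (median -0.27, 1 at that level). So they were for 12 of 12 striatal neuron markers (median -0.18, 0 at that level) and 7 of 8 tested T and NK cell markers (median -0.64, 2 at that level). Of the 14 endothelial markers 8 had positive and 6 negative values (median 0.14, 4 higher and 0 lower at that level). Summed choroid plexus markers ranged from 11.7 to 19.5 CPM in Control+c-MSST libraries and from 10.95 to 1825 CPM in Control libraries. The 14 microglia markers summed to 404 to 529 CPM in Control+c-MSST libraries and 359 to 481 CPM in Control libraries, and the 14 endothelial markers to 452 to 513 CPM in Control+c-MSST libraries and 427 to 450.4 CPM in Control libraries. With microglia and endothelial scores as covariates the log2 fold change of B2m was -0.82 (adjusted p = 0.0172 by edgeR, with 0.646% of all tested genes called). The endothelial score held Ly6a, 1 of the 10 genes most like the members, and the endothelial sums of the 2 groups did not overlap. This covariate was therefore not independent of the members or of the comparison. With striatal, septal and choroid plexus scores as covariates B2m was at -0.83 (adjusted p = 0.0638 by edgeR) and 0 of 9 members were called, as were 0% of all tested genes. The part of oligodendrocyte, astrocyte and meningeal RNA was not tested. In bulk tissue, fewer cells of a type and less RNA per cell cannot be told apart.

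In mice given MK-801, c-MSST was compared with no c-MSST. In SCZ+c-MSST against SCZ libraries 8 of 9 members had negative and 1 a positive log2 fold change (B2m), with a median of -0.12 against -0.01 over all tested genes. None of the 9 was called, against 0% of all tested genes, and 0 of 9 passed at an unadjusted p under 0.05 (3.86% of all tested genes were higher and 3.7% lower). B2m averaged 68.1 ± 7.85 CPM in SCZ+c-MSST libraries and 59.8 ± 8.56 CPM in SCZ libraries (SD, n = 4 each), and the fitted log2 fold change was 0.19 (SE 0.18, adjusted p = 0.853). Psmb9 averaged 1.19 ± 0.401 CPM in SCZ+c-MSST libraries and 1.67 ± 0.676 CPM in SCZ libraries, and the fitted log2 fold change was -0.49 (SE 0.57, adjusted p = 0.884). The SCZ+c-MSST and SCZ ranges overlapped for all 9, while 4.5% of all tested genes lay wholly higher and 3.78% wholly lower.

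Among c-MSST mice, MK-801 was compared with saline. In SCZ+c-MSST against Control+c-MSST libraries 8 of 9 members had positive log2 fold changes (median 0.47 against -0.00021 over all tested genes) and none was called, against 0% of all tested genes. At an unadjusted p under 0.05, 2 of 9 (B2m and Tap2) were higher, against 5.46% of all tested genes (5.51% were lower). B2m averaged 68.1 ± 7.85 CPM in SCZ+c-MSST libraries and 48.2 ± 3.72 CPM in Control+c-MSST libraries, and the fitted log2 fold change was 0.50 (SE 0.17, adjusted p = 0.349 by edgeR). B2m and Psmb8 had ranges that did not overlap, 2 of 9 members against 2.3% of all tested genes higher in this way (2.36% were lower). Nlrc5 averaged 3.98 ± 1.07 CPM in SCZ+c-MSST libraries and 2.12 ± 0.759 CPM in Control+c-MSST libraries, and the fitted log2 fold change was 0.91 (SE 0.47, adjusted p = 0.498). Tap2 was at 0.31 (SE 0.12, adjusted p = 0.390). Summed striatal neuron markers averaged 1599 ± 529 CPM in SCZ+c-MSST libraries and 748 ± 533 CPM in Control+c-MSST libraries. All 10 oligodendrocyte markers (median 0.40, 2 at an unadjusted p under 0.05) and all 8 tested T and NK cell markers (median 1.46, 1 at that level) also had positive values, with 0 called, and their part was not tested. The median of the members was 0.25 with striatal, septal and choroid plexus scores as covariates.

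The interaction asks whether c-MSST differed in its effect between MK-801 and saline mice. The log2 difference was positive for 8 of 9 members, with a median of 0.38 against 0.0015 over all tested genes, and none was called, against 0% of all tested genes. B2m had the value 0.81 (SE 0.24, adjusted p = 0.482 by edgeR) and was the 1 of 9 higher at an unadjusted p under 0.05, against 3.9% of all tested genes (3.39% were lower). Without Control replicates 2 and 3 together, which was chosen after their choroid plexus and meningeal levels were seen, it was 1.03 (adjusted p = 0.0476) and was the only gene called, 0.00612% of all tested genes. These replicates had the lowest B2m of the Control libraries, so leaving them out could only raise this value, and no conclusion is drawn from the call. Nlrc5 was at 1.08 (SE 0.65, adjusted p = 0.747; 0.52 without Control replicate 4) and Tapbp at -0.18 (SE 0.12, adjusted p = 0.767). These contrasts share libraries, so their values are not independent of each other.

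**Figure D3:**
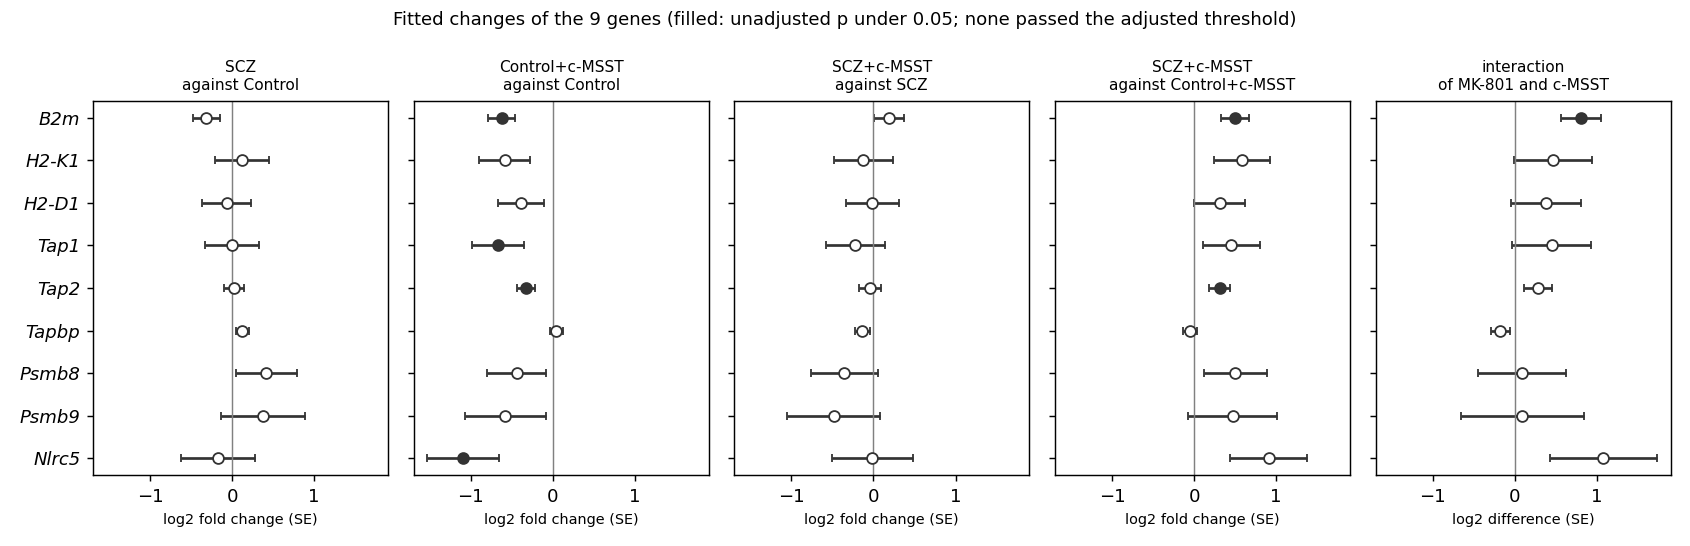
Log2 fold change with its SE (horizontal axis) of each gene in the 4 comparisons and the log2 difference in the interaction. Filled points have an unadjusted p under 0.05 and none passed the adjusted threshold; the 4 filled points of Control+c-MSST against Control lie below 0, between -1.10 and -0.32.

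The immunoproteasome subunits were set against the constitutive subunits they replace. Psmb8 reached 3.79 ± 0.634% of the FPKM of Psmb5 in SCZ+c-MSST, 4.79 ± 1.85% in SCZ, 2.69 ± 0.602% in Control+c-MSST and 3.90 ± 2.13% in Control libraries (SD). Psmb9 reached 1.25 ± 0.381% of Psmb6 in SCZ+c-MSST, 1.82 ± 0.779% in SCZ, 1.00 ± 0.373% in Control+c-MSST and 1.49 ± 1.42% in Control libraries. Psmb10, the remaining inducible subunit, reached 23.7 ± 3.05% of Psmb7 in SCZ+c-MSST, 22.3 ± 1.32% in SCZ, 25.6 ± 1.82% in Control+c-MSST and 21.8 ± 2.96% in Control libraries. The share of Psmb10 was higher in every library than those of Psmb8 and Psmb9. The 14 genes of the constitutive core had a median log2 fold change of 0.02 in Control+c-MSST against Control libraries, with 0 called.

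**Figure D4:**
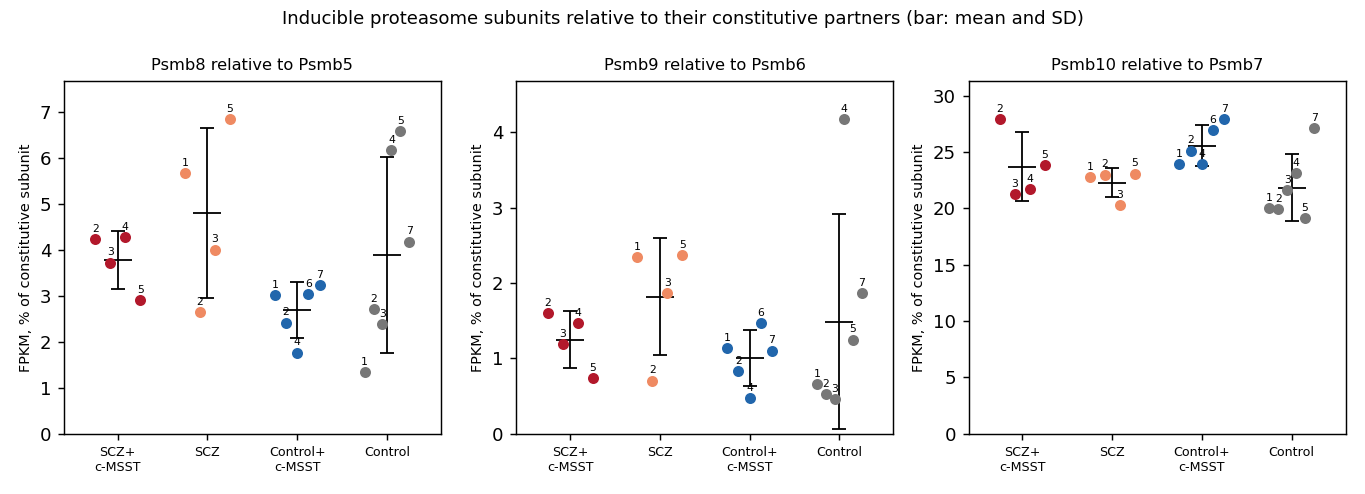
FPKM of 3 inducible proteasome subunits as a percentage of their constitutive partner (vertical axes, from 0) in each library, by group, with replicate numbers and mean and SD. Psmb10 lies between 19.1% and 28.0% of Psmb7 throughout, and Psmb8 and Psmb9 reach at most 6.85% and 4.18% of theirs.

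Other genes of the pathway were read from lists. Of 25 genes of the other class I pathway, such as the chaperones Hspa8 and Hsp90aa1, 14 had positive and 11 negative log2 fold changes in Control+c-MSST against Control libraries, with a median of 0.0033 and 0 called. Hspa8 averaged 1513 ± 48.2 CPM in SCZ+c-MSST libraries, 1497 ± 90.5 CPM in SCZ libraries, 1571 ± 126 CPM in Control+c-MSST libraries and 1552 ± 61.1 CPM in Control libraries. Of 19 tested genes among the other H2 class I and class I-like genes, 15 had negative values in Control+c-MSST against Control libraries (median -0.24, 0 called, 5 lower at an unadjusted p under 0.05). H2-T24 averaged 27.0 ± 3.41 CPM in Control+c-MSST libraries and 25.3 ± 3.73 CPM in Control libraries, and H2-T23 12.97 ± 1.68 CPM in Control+c-MSST libraries and 14.1 ± 5.19 CPM in Control libraries. Class II genes had a median of 0.66 in SCZ+c-MSST against Control+c-MSST libraries (10 of 11 positive, 0 called) and -0.22 in Control+c-MSST against Control libraries. The 27 class I regulators had medians between -0.05 and -0.01 in the 5 comparisons, with 0 called.

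Genes with the pattern most like the members were found by the correlation, within groups over the 19 libraries, between their log2 CPM and the mean of the members. Of 14044 genes compared, the 10 highest were Tgtp1 (r = 0.931), Iigp1, Gbp4, H2-Q4, Parp14, Ddx60, Irgm2, Ly6a, H2-T23 and Uba7 (r = 0.884). Tgtp1, Iigp1, Gbp4, Parp14 and Irgm2 were on the list of interferon-induced genes, which H2-Q4 and H2-T23 were not. Ly6a was on the list of endothelial markers. The points share library depth and tissue, and the values are a description. Gbp4, a guanylate binding protein, reached 33.5 CPM in Control replicate 4 and 22.1 and 25.0 CPM in SCZ replicates 1 and 5, and it lay at 2.99 to 4.65 CPM in SCZ+c-MSST and at 1.18 to 3.14 CPM in Control+c-MSST libraries. Tgtp1 was at 11.2 CPM in Control replicate 4 and at 0.207 CPM in Control replicate 1. Among the members, Nlrc5 followed the mean of the others most closely (r = 0.933), then H2-K1 (0.899), Psmb9 (0.885) and H2-D1 (0.885), and Tap2 least (0.304), with B2m at 0.599.

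**Figure D5:**
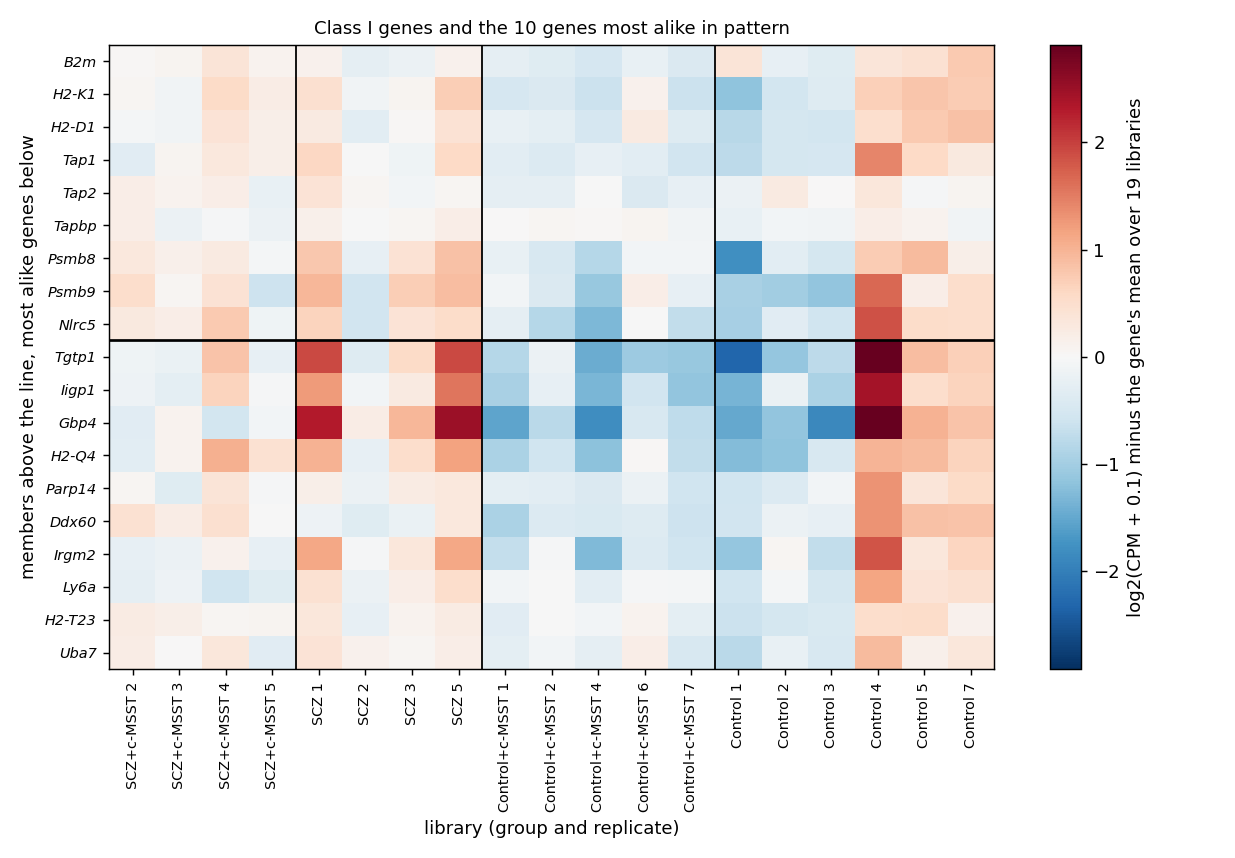
Log2(CPM + 0.1) of the 9 genes (above the line) and the 10 genes most like them (below), minus each gene's mean over 19 libraries, in each library. Control replicate 4 is highest for Gbp4 (33.5 CPM) and Nlrc5 (11.8 CPM), and Control replicate 1 is low for both.

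The interferon-induced list as a whole had 46 of 49 tested genes with negative log2 fold changes in Control+c-MSST against Control libraries. The median of the 49 was -0.65, with 0 called and 19 lower at an unadjusted p under 0.05 (8.7% of all tested genes were lower at that level). In SCZ+c-MSST against Control+c-MSST libraries 43 of 49 were positive (median 0.39, 0 called). Their sum was 187 to 286 CPM in SCZ+c-MSST libraries, 191 to 277 CPM in SCZ libraries, 159 to 198 CPM in Control+c-MSST libraries and 158 to 532 CPM in Control libraries. Control replicate 4 was at 532 CPM and replicates 5 and 7 at 247 and 294 CPM, while replicates 1, 2 and 3 were at 158, 178 and 171 CPM. The list was not summarised without Control replicate 4. The 8 interferon ligand genes summed to at most 0.651 CPM in any library, and 1 of the 8 was tested. T and NK cell markers, among which Cd4 was the most abundant, summed to 14.4 to 31.2 CPM in SCZ+c-MSST libraries, 18.6 to 31.7 CPM in SCZ libraries, 2.59 to 15.5 CPM in Control+c-MSST libraries and 1.47 to 23.6 CPM in Control libraries. Of the 13 markers 12 averaged under 1 CPM over the 19 libraries. Cd4 averaged 21.35 CPM in SCZ libraries, where the sum averaged 22.87 CPM. The lowest sums, 1.47 and 1.81 CPM in Control replicates 3 and 2, went with the lowest striatal neuron sums, 188 and 226 CPM. The highest, 31.7 CPM in SCZ replicate 1 and 31.2 CPM in SCZ+c-MSST replicate 3, went with the highest striatal sums, 2185 and 2275 CPM. Whether the T and NK cell sums reflect T cells or striatal tissue was not tested. Cd8a, the co-receptor that binds class I, averaged 0.468 ± 0.236 CPM in SCZ+c-MSST libraries, 0.419 ± 0.120 CPM in SCZ libraries, 0.288 ± 0.0830 CPM in Control+c-MSST libraries and 0.549 ± 0.337 CPM in Control libraries. Border macrophage and myeloid markers summed to 27.5 to 39.9 CPM in SCZ+c-MSST libraries, 29.7 to 40.8 CPM in SCZ libraries, 27.7 to 38.4 CPM in Control+c-MSST libraries and 24.1 to 40.3 CPM in Control libraries. The part of T cell, myeloid and interferon-induced RNA in the members' levels was not tested.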

How the data were processed

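Per the labels' protocols, a stranded total RNA kit was used for the libraries. The mouse build mm10 and the tools StringTie (1.3.5), STAR (2.7.7a), fastp (0.19.5) and Picard (2.18.29) come from the submitters' processing notes. The annotation, the order of steps and the strand setting are not given in these sources. The authors deposited estimated counts for each gene as whole numbers, so none was rounded, and FPKM values, which the authors scaled to gene length and depth. Each of the 19 columns took its group from a title. Counts divided by FPKM were constant for a gene, up to a factor per library (99th percentile of the absolute log2 deviation 0.00204, over 10886 genes with a mean above 500 counts). Of 20938 genes, 20927 matched by name in the FPKM table and 2327 had no count in any library.

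From the estimated counts, edgeR 4.0.16 in R 4.3.3 was run with filterByExpr, TMM scaling and 1 quasi-likelihood model (glmQLFit, robust) over all 19 libraries with a coefficient per group. The 5 contrasts were tested with glmQLFTest and adjusted by Benjamini and Hochberg over 16417 genes. CPM were computed per library on TMM-scaled totals, and FPKM were used to set genes side by side. The model was tested on simulated data. The members, lists and rules were chosen with earlier results of these data known. The rule named all 9 members, and of each other list described up to 4 called genes or otherwise the 2 with the highest mean CPM, and the 10 genes most like the members; Cd8a, Patl2, Zbtb22, H2-Q7, Psmb5, Psmb6 and Psmb10 were named after their values were seen. Alternatives were DESeq2 1.42.0, other scalings and filters, limma 3.58.1 with voom and on log2(FPKM + 1) and log2(FPKM + 0.1), the replicate number as a block, covariates, only the groups compared, and leaving out libraries. Libraries of a group differed by more than sampling noise. Promoters and motifs were read with Python 3.11.15.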

Additional observations from a re-analysis of the deposited data

Results flagged for a closer look

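A library was set apart where its gap to the nearest of its group, divided by the range of the group, exceeded Dixon's critical value. Of 36 combinations of a gene and a group examined, 3 were found, and chance alone gives about 1 in 20. The combinations share libraries and most members vary together, so they are not independent and this rate is only a rough guide. H2-K1 was highest in Control+c-MSST replicate 6 at 26.8 CPM, above the 15.9 to 18.3 CPM of the other 4 libraries. Psmb9 was highest in Control replicate 4 at 3.56 CPM, against at most 1.54 CPM in the other 5. Nlrc5 was highest in Control replicate 4 at 11.8 CPM, against at most 4.63 CPM in the other 5. Control replicate 4 also had the most Gbp4, at 33.5 CPM.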

How the results depend on the processing

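Of the 9 members, 0 were called in each comparison. In Control+c-MSST against Control, 1 (B2m) was called under DESeq2, with microglia and endothelial scores as covariates and without Control replicates 2 and 3 together, and 0 to 1 when single libraries were left out. The added exclusion, chosen after the data were seen, also gave 1 member in the interaction, the 1 gene called of all tested. It removed the Control libraries with the lowest B2m, which fixed the direction of these changes in advance. The median member in SCZ+c-MSST against Control+c-MSST was 0.17 on log2(FPKM + 1) and 0.25 with striatal, septal and choroid plexus scores. The medians over all genes in these settings were -0.056 and 0.0017. Calls over all genes in Control+c-MSST against Control were 54, against 567 with DESeq2, 259 and 250 on log2(FPKM + 1) and log2(FPKM + 0.1), 25 with voom, 106 with microglia and endothelial scores, 16 without Control replicates 2 and 3, 0 with striatal, septal and choroid plexus scores, 0 with only the groups compared and 0 to 314 when single libraries were left out. In place of 0, DESeq2 called 243 genes in SCZ against Control, 62 in SCZ+c-MSST against SCZ, 73 in SCZ+c-MSST against Control+c-MSST and 40 in the interaction. Voom called 2, 46, 40 and 0 genes in these comparisons, and 31 were called with only the groups compared in SCZ+c-MSST against SCZ. Leaving out single libraries gave 0 to 94 in SCZ against Control. The causes were not tested.

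Small values changed sign. In SCZ against Control, Tap1 was -0.0014 with DESeq2, -0.0010 with its size factors, -0.074 with voom, -8.27e-05 with only the groups compared, -0.34 with microglia and endothelial scores, -0.47 with striatal, septal and choroid plexus scores and -0.28 without Control replicates 2 and 3. H2-K1 was -0.000378 with voom, -0.052 and -0.18 with these 2 sets of scores and -0.13 without the 2 libraries, and Psmb9 was -0.18 with the tissue scores and -0.032 without the libraries. Tap2 was -0.013 with voom. H2-D1 was 0.087 on log2(FPKM + 1) and 0.098 on log2(FPKM + 0.1), and Nlrc5 0.073 on the last scale. In SCZ+c-MSST against SCZ, voom gave 0.050 for H2-D1 and 0.059 for Nlrc5, and striatal, septal and choroid plexus scores gave 0.055 for H2-K1, 0.094 for H2-D1, 0.058 for Psmb8 and 0.31 for Nlrc5. In the interaction, Psmb8 was -0.066 and -0.18, and Psmb9 -0.065 and -0.26, on log2(FPKM + 1) and log2(FPKM + 0.1). The median over all genes on these scales was itself -0.083 and -0.125.

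Leaving out single libraries gave ranges of -0.14 to 0.39 for Tap1, -0.051 to 0.27 for H2-K1, -0.21 to 0.11 for H2-D1, -0.35 to 0.38 for Nlrc5 and -0.080 to 0.087 for Tap2 in SCZ against Control. In SCZ+c-MSST against SCZ they were -0.13 to 0.096 for H2-D1, -0.26 to 0.035 for H2-K1, -0.23 to 0.11 for Nlrc5 and -0.10 to 0.066 for Tap2. They were -0.16 to 0.29 for Psmb8 and -0.53 to 0.29 for Psmb9 in the interaction, and -0.76 to 0.047 for Psmb9 in Control+c-MSST against Control. All 19 pairs of libraries with the same replicate number correlated at -0.096 to 0.14, 1 of them over 0.1. No pairing by number was seen, but these correlations could miss a weak shared factor, so pairing is not excluded. The replicate block gave 0 members called in each comparison, 0 genes in place of 54 in Control+c-MSST against Control, 0.16 for H2-D1 and 0.20 for Nlrc5 in SCZ against Control, and -0.065 for Psmb8 and -0.059 for Psmb9 in the interaction.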
